A study of Homo sapiens with 16 samples.

Results

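The genes described here encode the cathepsins, the proteases of the lysosome, and the subunits of the vacuolar-type ATPase (V-ATPase), the proton pump that acidifies it. They were taken by name from the 35993 gene symbols of the count table. Every symbol beginning with ATP6V0 or ATP6V1 was taken, and every symbol made of CTS and 1 further letter. Antisense and pseudogene names, 17 in all, were left out, which gave 39 genes, 24 by the V-ATPase names and 15 cathepsins. Of the 24, 22 encode subunits. ATP6V1FNB is a neighbour of ATP6V1F, and ATP6V1G2-DDX39B names transcripts that run from ATP6V1G2 into the next gene.

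The libraries were bulk RNA of 4 established lines of human bladder cancer, named 253J, J82, RT112 and TCCSUP. Cells were kept for 48 h in CM-1758, which inhibits histone deacetylases, or in the DMSO vehicle at 0.01% (control). Each line received its own IC50, so dose and cell line cannot be told apart. TCCSUP was grown in EMEM and the other lines in DMEM. Each of the 8 groups held 2 libraries, which the study describes as independent biological replicates. In such libraries fewer cells of a type and less RNA per cell cannot be told apart.

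Lysosomal proteases are made as inactive precursors and most work best in an acidic compartment. The V-ATPase supplies the acid. Its V1 sector on the cytosolic face hydrolyses ATP, and its V0 sector in the membrane moves protons. The pump also takes part in the nutrient signal that brings mTORC1 to the lysosome. Most cathepsins are cysteine proteases, while CTSD and CTSE are aspartic and CTSA and CTSG are serine enzymes. Transcription factors of the MiT/TFE family, of which TFEB is the best known, switch on many of these genes by binding sites built around the letters CACGTG.

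Those letters were looked up in the RefSeq promoter windows of assembly GRCh38.p14, which run from 250 bases before to 50 bases after a start. The counts were made on GRCh37, so the windows were joined by gene symbol only. Such windows were found for 26 of the 39 genes. CACGTG, which reads the same on both strands, was in a window of 7 of them, 4 of 16 V-ATPase names (ATP6V0B, ATP6V0D1, ATP6V0E2 and ATP6V1G1) and 3 of 10 cathepsins (CTSA, CTSD and CTSF). It was in 7.26% of the 35116 windows of the whole table. The longer TCACGTGA, which contains it, was in the windows of ATP6V0D1, ATP6V1G1 and CTSA, against 0.980% of all windows. Both percentages count windows, while the 26 genes are counted as genes, some with several windows, so the figures are not like for like. ATP6V0D2, ATP6V0E1, ATP6V1A, ATP6V1B2, ATP6V1C1, ATP6V1E2, ATP6V1H, ATP6V1FNB, CTSB, CTSK, CTSO, CTSS and CTSW were not matched.

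The 100 bases before the start are shown for 5 genes that hold the letters, with CACGTG in capitals, so that its place can be compared with the changes given later. They lie at chr16:67481158-67481257 (minus strand) for ATP6V0D1, chr9:114587669-114587768 (plus strand) for ATP6V1G1, chr1:43974860-43974959 (plus strand) for ATP6V0B, chr20:45891235-45891334 (plus strand) for CTSA and chr11:1763928-1764027 (minus strand) for CTSD, each written 5′ to 3′ along the gene.
ATP6V0D1: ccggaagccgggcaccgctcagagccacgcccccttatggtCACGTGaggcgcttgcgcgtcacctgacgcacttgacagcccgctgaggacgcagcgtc
ATP6V1G1: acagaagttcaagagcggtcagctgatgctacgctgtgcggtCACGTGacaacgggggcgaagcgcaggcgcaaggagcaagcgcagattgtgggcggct
ATP6V0B: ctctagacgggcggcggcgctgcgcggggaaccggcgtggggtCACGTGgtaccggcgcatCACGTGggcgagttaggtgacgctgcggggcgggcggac
CTSA: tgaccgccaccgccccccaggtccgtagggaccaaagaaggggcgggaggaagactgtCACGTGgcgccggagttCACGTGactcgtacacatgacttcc
CTSD: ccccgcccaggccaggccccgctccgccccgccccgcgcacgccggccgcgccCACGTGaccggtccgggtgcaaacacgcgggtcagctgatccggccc

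CACGTG began 59 bases before the start in ATP6V0D1 and 58 bases before it in ATP6V1G1. ATP6V0D1 rose with CM-1758 in 3 cell lines, ATP6V1G1 in 2, ATP6V0B and CTSF in 1 each, as described later. ATP6V0E2, CTSA and CTSD rose in none. ATP6V1A, ATP6V1B2, ATP6V1C1 and ATP6V1H rose in 4, 3, 3 and 2 lines but had no matched window, so the comparison lacks them. CACGTG was present at 2 places in the windows of ATP6V0B, CTSA and CTSF. The same stretch is shown for 5 genes with large changes and no CACGTG in their windows, ATP6V1D at chr14:67359805-67359904 (minus strand), CTSC at chr11:88337737-88337836 (minus strand), CTSZ at chr20:59007255-59007354 (minus strand), CTSH at chr15:78945047-78945146 (minus strand) and CTSV at chr9:97039143-97039242 (minus strand). Both sets were picked after the values were seen, and a match in letters describes the sequence only.
ATP6V1D: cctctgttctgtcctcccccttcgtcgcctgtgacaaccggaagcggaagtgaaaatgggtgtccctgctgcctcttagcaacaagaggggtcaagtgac
CTSC: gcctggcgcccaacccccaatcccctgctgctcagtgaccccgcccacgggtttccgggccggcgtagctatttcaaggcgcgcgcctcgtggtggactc
CTSZ: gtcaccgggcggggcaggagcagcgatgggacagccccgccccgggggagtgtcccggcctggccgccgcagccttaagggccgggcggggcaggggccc
CTSH: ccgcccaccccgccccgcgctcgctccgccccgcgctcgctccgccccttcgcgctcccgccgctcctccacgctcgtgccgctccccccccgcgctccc
CTSV: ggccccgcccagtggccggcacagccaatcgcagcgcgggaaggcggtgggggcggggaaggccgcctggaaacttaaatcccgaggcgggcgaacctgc

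Of the 39 genes, 36 passed the filter on low counts and were tested with edgeR's quasi-likelihood test among 21297 genes, with Benjamini-Hochberg adjustment within each cell line. All 24 V-ATPase names and 12 cathepsins were tested, and CTSE, CTSG and CTSW were not, with at most 15 counts in any library. A gene is said here to have risen or fallen at an adjusted p under 0.01. The stricter threshold of the study also asks for a log2 fold change above 2 or below -2. In 253J 12 of the 36 genes rose and 4 fell, where 21.4% and 18.1% of all tested genes did so. In J82 5 rose and 2 fell, against 17.4% and 13.3% of all genes. In RT112 9 rose and 5 fell, against 20.0% and 14.7%, and in TCCSUP 11 rose and 6 fell, against 23.7% and 17.2%. By family, the V-ATPase names had 10 higher and 0 lower in 253J (1 lower, ATP6V1C2, at an unadjusted p under 0.05, edgeR), 10 and 1 in TCCSUP, 7 and 1 in RT112 and 3 and 1 in J82. The cathepsins had 2 higher and 4 lower in 253J, 1 and 5 in TCCSUP, 2 and 4 in RT112 and 2 and 1 in J82. The difference between the families was not tested.

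Past the study's threshold were 6 of the 36 genes in TCCSUP (17.5% of all tested genes), 5 in 253J (12.9%), 3 in RT112 (12.8%) and 1 in J82 (10.1%). The median log2 fold change of the 24 V-ATPase names was 0.49, 0.11, 0.46 and 0.73 in 253J, J82, RT112 and TCCSUP, above that of all genes, which was 0.10, 0.05, 0.12 and 0.20. In RT112 the median of the V-ATPase names was 0.38 once ATP6V0D2, at or under 3 counts in all 4 libraries, was set to no change. The 12 cathepsins had medians of -0.35, -0.14, -0.05 and -0.52. With library size alone in place of TMM scaling the medians of all genes moved to 0.37, 0.19, 0.27 and 0.51, and those of the cathepsins to -0.13, 0.01, 0.10 and -0.20, so that the sign in J82 and RT112 turned. It also turned in RT112 with RLE size factors and DESeq2 (0.03 in both) and with at least 10 counts in every library (0.08), and in J82 with that filter (0.10) and without control replicate 1 (0.17) or CM-1758 replicate 3 (0.06). In J82 the median of the V-ATPase names ran from 0.01 to 0.28 when 1 library was left out.

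**Figure D1:**
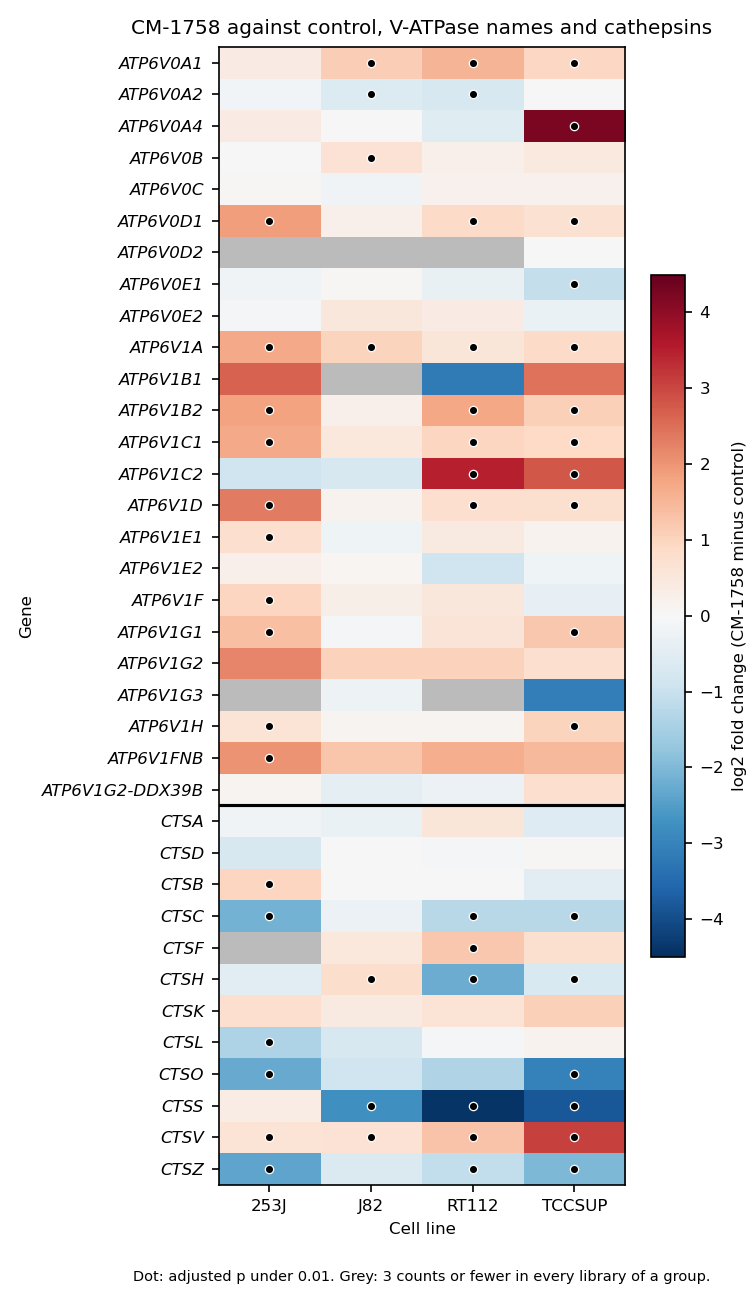
Log2 fold change with CM-1758 (colour) of each tested gene (rows) in each cell line (columns). Dots mark an adjusted p under 0.01, and grey cells a group whose libraries all held 3 counts or fewer. ATP6V1A and CTSV carry a dot in all 4 columns, and the J82 column holds 7 dots, the fewest.

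Of the 13 V1 subunit genes, 8 rose in 253J (61.5%), 7 in TCCSUP (53.8%), 5 in RT112 (38.5%) and 1 in J82 (7.69%). The number that fell was 0 in each line by edgeR and by DESeq2. At an unadjusted p under 0.05 (edgeR) it was 1 in 253J and TCCSUP, 2 in RT112 and 0 in J82. Of the 9 V0 genes, 1, 2, 2 and 3 rose in 253J, J82, RT112 and TCCSUP (11.1%, 22.2%, 22.2% and 33.3%). In that order 0, 1, 1 and 1 fell (0%, 11.1%, 11.1% and 11.1%). Of all tested genes, 21.4%, 17.4%, 20.0% and 23.7% rose and 18.1%, 13.3%, 14.7% and 17.2% fell in the same order of lines. The V1 median log2 fold change was 1.34, 0.13, 0.53 and 0.87 in that order, and the V0 median was 0.01, 0.06, 0.24 and 0.19. With ATP6V0D2 set to no change the V0 median in RT112 was 0.20. The difference between the sectors was not tested.

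Of the 36 genes 2 rose in all 4 cell lines (5.56%), and no share of all tested genes is given for this count. ATP6V1A, the catalytic subunit that binds ATP, was the only V-ATPase gene among them. In 253J it was at 135 and 124 CPM (counts scaled to library size by TMM) in the control libraries and at 403 and 436 with CM-1758, a log2 fold change of 1.70 ± 0.15 (SE, adjusted p = 3.37e-07, edgeR). In J82 it was at 162 and 203 CPM in control and at 345 and 387 CPM with CM-1758, a log2 fold change of 1.00 ± 0.14 (adjusted p = 6.42e-05, edgeR). The treated libraries lay above both controls in each of these lines. In RT112 the controls were at 220 and 205 CPM and the treated libraries at 324 and 289, a log2 fold change of 0.53 ± 0.14 (adjusted p = 0.00717, edgeR). In TCCSUP the controls were at 117 and 132 CPM and the treated libraries at 236 and 220, a log2 fold change of 0.87 ± 0.14 (adjusted p = 0.000145, edgeR). The groups did not overlap in any of the 4 lines. The RT112 call was lost without any 1 of its 4 libraries, with adjusted p-values from 0.0153 to 0.0611, and missed the limit without the filter on low counts, at 0.0106.

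ATP6V1D, part of the central stalk that turns during catalysis, passed the study's threshold in 253J. It was at 40.1 and 31.3 CPM in the controls and at 173 and 191 CPM with CM-1758 there, 5.10-fold higher, with a log2 fold change of 2.35 ± 0.19 (adjusted p = 2.13e-07, edgeR). In RT112 it was at 52.8 and 47.7 CPM in control and 89.5 and 80.2 CPM with CM-1758. The TCCSUP libraries were at 64.6 and 70.7 CPM in control and 106 and 117 CPM with CM-1758. It rose in both of these, by log2 fold changes of 0.76 and 0.72, and both calls were lost without any 1 library of the line, at adjusted p-values between 0.0106 and 0.0385. In J82 the libraries overlapped, at 90.8 and 131 CPM in control and 106 and 139 CPM with CM-1758.

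ATP6V1B2, the B subunit of the catalytic ring in most tissues, and ATP6V1C1, the C subunit that holds ring and membrane sector together, followed the same order of lines. The log2 fold change of ATP6V1B2 was 1.82 in 253J, 1.75 in RT112 and 1.08 in TCCSUP, where it rose, and 0.24 in J82 (adjusted p = 0.247, edgeR). That of ATP6V1C1 was 1.71, 0.98 and 0.89 in the same lines, where it rose, and 0.47 in J82 (adjusted p = 0.0392, edgeR). Without control replicate 1 or CM-1758 replicate 2 of TCCSUP the ATP6V1C1 call there was lost, at adjusted p = 0.0141 and 0.0140.

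ATP6V1G1, of the peripheral stalk, rose in 253J and TCCSUP, by log2 fold changes of 1.34 and 1.20, and was at 0.60 in RT112 (adjusted p = 0.0287, edgeR) and -0.05 in J82. ATP6V1H, which regulates ATP hydrolysis, also rose in 253J and TCCSUP, by 0.61 and 0.99. ATP6V1E1 and ATP6V1F rose in 253J only, by 0.76 and 0.97. The calls of ATP6V1E1, ATP6V1F and ATP6V1H in 253J were each lost without CM-1758 replicate 1, at adjusted p = 0.0139, 0.0212 and 0.0155, and without other single libraries.

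Of the 8 V1 genes with a mean level above 10 CPM, 7 had their highest control level in J82, where ATP6V1A alone rose. ATP6V1D shows the order. Its mean control level was 35.7 CPM in 253J, 50.2 in RT112, 67.7 in TCCSUP and 111 in J82. With CM-1758 it was 182, 84.8, 112 and 123 CPM. The ratio of the highest to the lowest line mean was smaller with CM-1758 than in control for 6 of the 8 genes, such as ATP6V1B2, at 1.78 against 3.96. It was larger for the other 2, ATP6V1A at 1.84 against 1.70 and ATP6V1F at 3.26 against 1.61. Fold changes and control levels share the control libraries, so the order of one is not independent of the other. No shares of all tested genes are given for these counts of 7 and 6 of 8, so they cannot be called particular to V1 genes.

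ATP6V1C2 is the second gene for the C subunit, known mainly from kidney and lung. In RT112 it was at 0.752 and 0.881 CPM in the controls and at 8.18 and 10.4 CPM with CM-1758, 11.3-fold higher, with a log2 fold change of 3.50 ± 0.29 (adjusted p = 3.34e-07, edgeR). The TCCSUP libraries were at 1.03 and 1.30 CPM in control and 8.12 and 7.95 CPM with CM-1758, a log2 fold change of 2.78 ± 0.28 (adjusted p = 1.51e-06, edgeR). Both lines passed the study's threshold with no overlap between groups. In 253J it was at 1.88 and 2.11 CPM in control and 1.15 and 1.01 CPM with CM-1758, and in J82 at 0.646 and 0.691 CPM and at 0.465 and 0.339 CPM. The values were lower with treatment in these 2 lines, at adjusted p = 0.0192 and 0.119 (edgeR), above the limit.

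The remaining V1 genes had low counts. ATP6V1B1, the B subunit of acid-secreting kidney cells, was at 57 and 61 counts in the RT112 controls and at 2 and 9 counts with CM-1758, with no count in J82. Its log2 fold change was -3.19 in RT112 (adjusted p = 0.0194, edgeR) and 2.66 and 2.44 in 253J and TCCSUP, at adjusted p = 0.0566 and 0.0656. ATP6V1G3 had counts in TCCSUP and J82, and was at 2.05 CPM in the TCCSUP controls and 0.236 CPM with treatment (adjusted p = 0.0157, edgeR). ATP6V1G2 had log2 fold changes from 0.76 to 2.20 with no call, and its reads may be shared with ATP6V1G2-DDX39B, at -0.42 to 0.74. ATP6V1E2 ranged from -0.89 to 0.24 with no call. ATP6V1FNB, which is no subunit, was at 1.74 and 0.996 CPM in the 253J controls and at 6.46 and 4.62 CPM with CM-1758, a log2 fold change of 2.01 ± 0.47 (adjusted p = 0.00231, edgeR). That call was lost without control replicate 3 or CM-1758 replicate 1 of 253J, at adjusted p = 0.0341 and 0.0230. The other lines gave ATP6V1FNB log2 fold changes of 1.26 to 1.63, above the limit. Its J82 libraries were at 0.608 and 0.727 CPM in control and 1.25 and 1.96 CPM with treatment, those of RT112 at 0.163 and 0.813 CPM and at 1.57 and 1.45 CPM, and those of TCCSUP at 0.317 and 0.421 CPM and at 1.12 and 0.905 CPM.

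**Figure D2:**
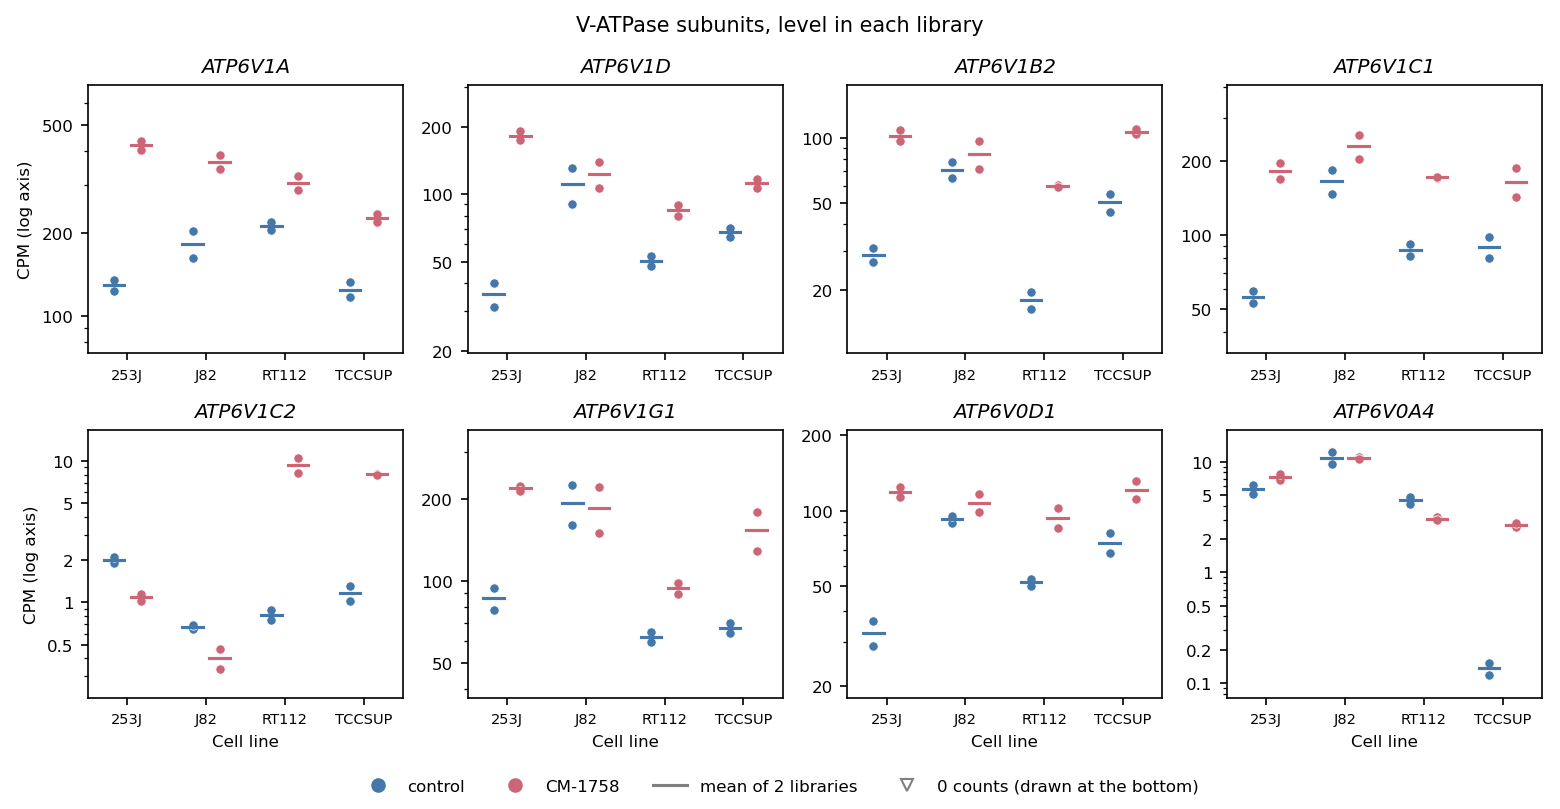
Level of 8 V-ATPase subunit genes in each library, in CPM on a log axis, by cell line, with control in blue, CM-1758 in red and bars at the mean of 2 libraries. ATP6V1A lies higher with CM-1758 in each cell line, and ATP6V0A4 separates in TCCSUP, from 0.119 and 0.153 to 2.55 and 2.79 CPM.

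In the V0 sector ATP6V0D1, which joins the proton channel to the stalk, rose in 3 lines. It was at 36.4 and 28.9 CPM in the 253J controls and at 125 and 113 CPM with CM-1758, a log2 fold change of 1.87 ± 0.16 (adjusted p = 3.61e-07, edgeR). In RT112 and TCCSUP the log2 fold changes were 0.85 and 0.70, and in J82 0.22 (adjusted p = 0.285, edgeR). The TCCSUP call was lost without control replicate 1 or CM-1758 replicate 2, at adjusted p = 0.0315 and 0.0261. ATP6V0D2, its osteoclast counterpart, had counts above the floor of 3 mainly in TCCSUP, at 1.19 and 2.30 CPM in control and 0.711 and 2.79 CPM with treatment.

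ATP6V0E1, a small membrane subunit, fell in TCCSUP by 1.06 on the log2 scale (adjusted p = 4.95e-05, edgeR) and was between -0.33 and 0.06 elsewhere, uncalled. ATP6V0B, of the proton-carrying ring, rose in J82 by 0.64 (adjusted p = 0.00177, edgeR), and this call was lost without control replicate 3 or CM-1758 replicate 3 of J82, at adjusted p = 0.0214 and 0.0110. ATP6V0E2 had log2 fold changes from -0.30 to 0.52 with no call. ATP6V0C, the main ring subunit, ranged from -0.17 to 0.20. Its group means were 11.5 to 15.6 CPM, and near-identical pseudogene copies of ATP6V0C in the genome make its counts uncertain.

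Subunit a, which carries protons across the membrane and sets where the pump is placed, is encoded by ATP6V0A1, ATP6V0A2, ATP6V0A4 and TCIRG1, the last not among the 39 by name. ATP6V0A1 rose in J82, RT112 and TCCSUP, by log2 fold changes of 1.10, 1.52 and 0.94, and was at 0.36 in 253J (adjusted p = 0.187, edgeR). ATP6V0A2 fell in J82 and RT112, by 0.63 and 0.72 on the log2 scale. TCIRG1 had log2 fold changes of -0.52, -0.63 and -0.51 in J82, RT112 and TCCSUP, at adjusted p = 0.0631, 0.0264 and 0.0591 (edgeR), all above the limit. The ATP6V0A1 call in TCCSUP was lost without any 1 library, at adjusted p = 0.0133 to 0.0254. The ATP6V0A2 call in J82 was lost with library size alone and without 3 of its 4 libraries, and in RT112 without control replicate 2 or CM-1758 replicate 1, at 0.0170 and 0.0111.

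Per kilobase of exon, the a genes were used in different proportions. In 253J ATP6V0A1 took 55.5% ± 0.57 (SD, n = 2) of the reads of subunit a in control and TCIRG1 1.79% ± 0.58 (SD, n = 2). In the other lines TCIRG1 was the largest in control, with 63.3% (J82), 61.8% (RT112) and 57.3% (TCCSUP). With CM-1758 the share of ATP6V0A1 went from 16.4% to 46.9% in RT112, from 15.9% to 30.8% in TCCSUP and from 10.4% to 27.0% in J82. The libraries of control and treatment did not overlap in any of these 3 lines. No test was made on the shares. Without the length correction ATP6V0A2 was the largest in control in 253J, at 51.2%, and in TCCSUP, at 45.0% against 39.7% for TCIRG1.

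**Figure D3:**
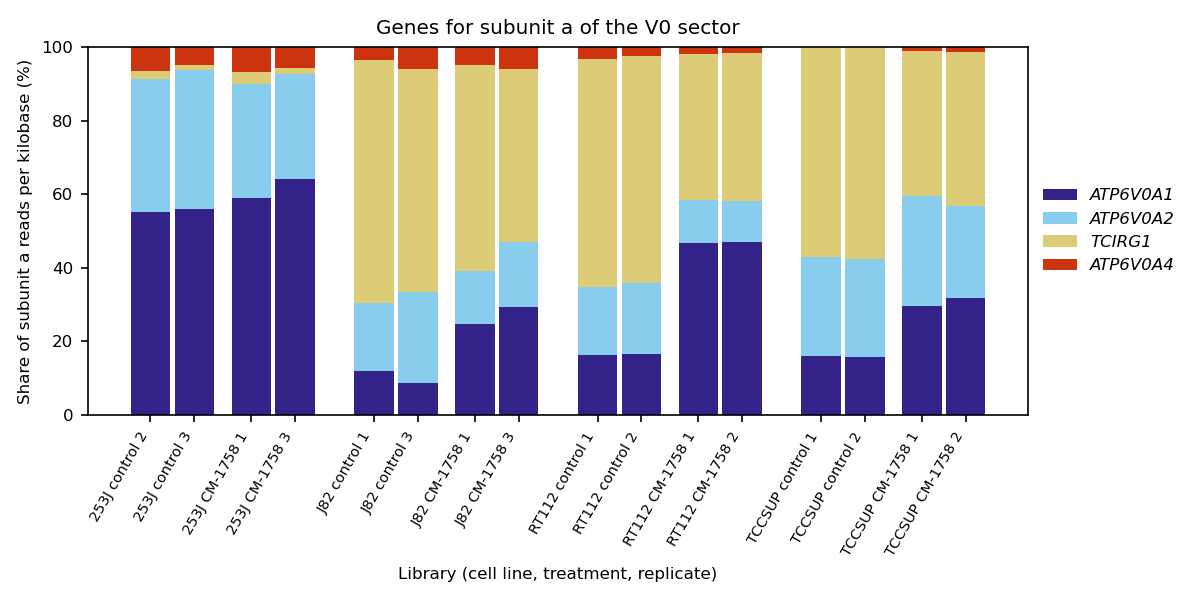
Share of the reads per kilobase of the 4 genes for subunit a (stacked bars, percent) in each of the 16 libraries. ATP6V0A1 covers 46.8% and 47.0% in the treated RT112 libraries against 16.3% and 16.6% in their controls, and TCIRG1 is nearly absent from 253J.

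ATP6V0A4, the form of subunit a best known from the kidney, changed in 1 line. The TCCSUP controls held 3 and 4 counts (0.119 and 0.153 CPM) and the treated libraries 68 and 71 counts (2.55 and 2.79 CPM), a log2 fold change of 4.25 ± 0.36 (adjusted p = 2.44e-07, edgeR). On the summed counts, 7 against 139, the ratio was 19.6, with an exact 95% interval from 9.25 to 49.6 that covers counting error only. Its level in treated TCCSUP stayed below the levels of J82, 9.57 and 12.1 CPM in control and 10.9 and 10.6 CPM with treatment. In 253J it was at 6.19 and 5.06 CPM and at 6.81 and 7.66 CPM, and in RT112 at 4.77 and 4.17 CPM and at 3.13 and 2.97 CPM, with no call in these 3 lines. Its share of subunit a in TCCSUP remained small, at 1.23% with CM-1758 against 0.0624% in control.

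Other paired genes were uneven. ATP6V1C2 took 8.44% ± 1.2 (SD, n = 2) of the C subunit reads per kilobase in treated RT112 and 7.82% ± 1.5 (SD, n = 2) in treated TCCSUP, against 1.59% and 2.18% in their controls. In 253J its share was 5.77% in control and 1.01% with treatment, as ATP6V1C1 rose. ATP6V1B1 made 14.1% ± 2.4 (SD, n = 2) of the B subunit reads in RT112 controls and 0.519% ± 0.46 (SD, n = 2) with treatment. ATP6V0D1, ATP6V1E1 and ATP6V1G1 held 95.1% or more of their subunit in every group.

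Turning to the cathepsins, CTSV was the only one that rose in all 4 cell lines, and no cathepsin fell in all 4. No share of all tested genes is given for these counts either. CTSV, a cysteine protease close to CTSL and known from thymus and testis, was at 99.6 and 117 CPM in the 253J controls and at 149 and 185 CPM with CM-1758, a log2 fold change of 0.63 ± 0.16 (adjusted p = 0.00473, edgeR). In J82 it was at 69.8 and 76.0 CPM in control and 122 and 110 CPM with CM-1758, a log2 fold change of 0.67 ± 0.16 (adjusted p = 0.00426, edgeR). Treated and control libraries lay apart in both lines. In RT112 the controls were at 81.2 and 65.6 CPM and the treated libraries at 195 and 159 CPM, a log2 fold change of 1.27 ± 0.17 (adjusted p = 2.22e-05, edgeR). In TCCSUP the controls were lowest of all, at 8.03 and 7.16 CPM, and the treated libraries were at 69.2 and 58.2 CPM, a log2 fold change of 3.07 ± 0.18 (adjusted p = 1.29e-08, edgeR). TCCSUP thus came from a level 14.2-fold below that of 253J in control to within 2.78-fold of the highest line with treatment. Leaving out 1 library ended the call in 253J for 3 of its 4 libraries and in J82 for 3 of 4, at adjusted p-values between 0.0102 and 0.0644.

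CTSC, which activates granule serine proteases and is also called dipeptidyl peptidase 1, fell in 3 lines. In 253J it was at 463 and 468 CPM in control and at 93.4 and 121 CPM with CM-1758, a log2 fold change of -2.12 ± 0.19 (adjusted p = 4.22e-07, edgeR). In RT112 it was at 310 and 293 CPM in control and 105 and 147 CPM with treatment. The TCCSUP libraries were at 287 and 282 CPM in control and 127 and 114 CPM with treatment. It fell in both, by 1.26 and 1.24 on the log2 scale. The J82 libraries were at 198 and 193 CPM and at 189 and 138 CPM, a log2 fold change of -0.26 (adjusted p = 0.281, edgeR).

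CTSZ, a carboxypeptidase, fell in the same 3 lines. In 253J it was at 85.5 and 102 CPM in control and at 18.8 and 17.4 CPM with CM-1758, a log2 fold change of -2.38 ± 0.20 (adjusted p = 3.11e-07, edgeR). In TCCSUP it was at 55.5 and 57.2 CPM in control and 13.8 and 14.2 CPM with treatment, a log2 fold change of -2.01 ± 0.20 (adjusted p = 1.5e-06, edgeR). Both passed the study's threshold, although the TCCSUP value lay inside the fold limit at -1.97 with RLE size factors and with DESeq2, at -1.86 with at least 10 counts in every library, at -1.70 with library size alone and at -1.99 without control replicate 2 or CM-1758 replicate 1. In RT112 it was at 104 and 115 CPM and at 51.0 and 49.9 CPM, a log2 fold change of -1.12. In J82 it was at 112 and 78.5 CPM in control and 73.2 and 47.4 CPM with treatment, a log2 fold change of -0.66 (adjusted p = 0.0119, edgeR), just above the limit.

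CTSS, which trims the invariant chain for antigen presentation, had the largest falls among the 36 genes. In RT112 it was at 25.8 and 17.2 CPM in control and at 1.29 and 0.725 CPM with CM-1758, a log2 fold change of -4.41 ± 0.70 (adjusted p = 0.000118, edgeR). In TCCSUP it was at 19.3 and 20.8 CPM in control and 1.98 and 0.826 CPM with treatment, a log2 fold change of -3.82 ± 0.67 (adjusted p = 0.000221, edgeR). In J82 it was at 27.6 and 11.7 CPM in control and 5.12 and 0.643 CPM with treatment, a log2 fold change of -2.78 ± 0.62 (adjusted p = 0.00205, edgeR). The groups did not overlap in these 3 lines, but the J82 libraries differed widely within each group. Without J82 control replicate 1 its adjusted p was 0.0217, and without CM-1758 replicate 1 its log2 fold change was -4.85 and without CM-1758 replicate 3 -1.94. The 253J libraries held 4 to 7 counts of CTSS, at 0.145 and 0.230 CPM in control and 0.238 and 0.236 CPM with treatment, so no change was detectable at this depth.

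CTSS is abundant in immune cells. Of 9 haematopoietic and macrophage markers, CD68 was at 0 counts in none of the 16 libraries, with at most 68.4 CPM, in J82 control replicate 1. CD14 and ITGAM were at 0 in 2 libraries, PTPRC and CSF1R in 4, LYZ in 5, CD3E in 13 and AIF1 in 15. PTPRC, the pan-leukocyte antigen, fell in TCCSUP by 3.10 on the log2 scale, from 9.58 to 1.12 CPM, while CSF1R rose there. Of the 6 tested markers 3, 0, 3 and 3 rose in 253J, J82, RT112 and TCCSUP (50%, 0%, 50% and 50%). In that order 0, 1, 0 and 1 fell (0%, 16.7%, 0% and 16.7%). Of all tested genes 21.4%, 17.4%, 20.0% and 23.7% rose in these lines and 18.1%, 13.3%, 14.7% and 17.2% fell. The summed level of the 9 was 27.9 to 73.1 CPM in J82 controls and 12.2 to 24.5 CPM with treatment, 40.3 to 42.0 and 29.8 to 36.3 CPM in TCCSUP, 4.20 to 4.64 and 8.62 to 9.39 CPM in RT112, and 8.54 to 11.0 and 31.7 to 43.6 CPM in 253J. It was lower with treatment in J82 and TCCSUP and higher in RT112, where CTSS had its lowest log2 fold change, and its part in the result was not tested.

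CTSO, a widely expressed cysteine protease, was at 29.7 and 35.4 CPM in the 253J controls and at 6.30 and 7.26 CPM with CM-1758, a log2 fold change of -2.26 ± 0.40 (adjusted p = 0.00023, edgeR). In TCCSUP it was at 16 and 18 counts in control (0.633 and 0.689 CPM) and at 4 and 0 counts with CM-1758, a log2 fold change of -3.04 ± 0.85 (adjusted p = 0.00744, edgeR). On the summed TCCSUP counts, 34 against 4, the ratio was 8.62, with an exact 95% interval from 3.08 to 33.5 for counting error only. That call was lost with library size alone, with TCCSUP fitted alone and without either control library or CM-1758 replicate 2, at adjusted p-values from 0.0136 to 0.0655. Without CM-1758 replicate 2 the log2 fold change was -2.11, and without CM-1758 replicate 1, which left the library at 0 counts, the fitted value was -7.18. In J82 CTSO was at 3.23 and 1.67 CPM in control and 1.79 and 0.812 CPM with treatment, and in RT112 at 2.45 and 2.00 CPM and at 0.509 and 1.22 CPM. Those 2 log2 fold changes, -0.91 and -1.36, had adjusted p = 0.122 and 0.0305 (edgeR) and were not called.

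CTSH, an aminopeptidase of the lysosome known from lung surfactant processing, moved both ways. The RT112 controls held 1912 and 1755 CPM and the treated libraries 336 and 442 CPM, a log2 fold change of -2.24 ± 0.20 (adjusted p = 8.17e-07, edgeR). In J82 it rose, from 30.7 and 23.4 CPM to 53.7 and 40.6 CPM, a log2 fold change of 0.80 ± 0.20 (adjusted p = 0.00492, edgeR). No share of all tested genes is given for such opposite calls. Among the 36 genes, CTSH was the only one that rose in 1 line and fell in another (2.78%). In TCCSUP it was at 59.7 and 73.8 CPM in control and 40.7 and 41.6 CPM with treatment (log2 fold change -0.70, adjusted p = 0.00844, edgeR), and in 253J at 95.5 and 125 CPM and at 71.3 and 82.1 CPM (-0.52, adjusted p = 0.0381). The TCCSUP call was lost without any 1 library, with at least 10 counts asked of every library (0.0291) and under RLE size factors (adjusted p = 0.0128) or library size alone (0.133). The J82 call was lost without control replicate 3 or CM-1758 replicate 1, at adjusted p = 0.0531 and 0.0346.

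**Figure D4:**
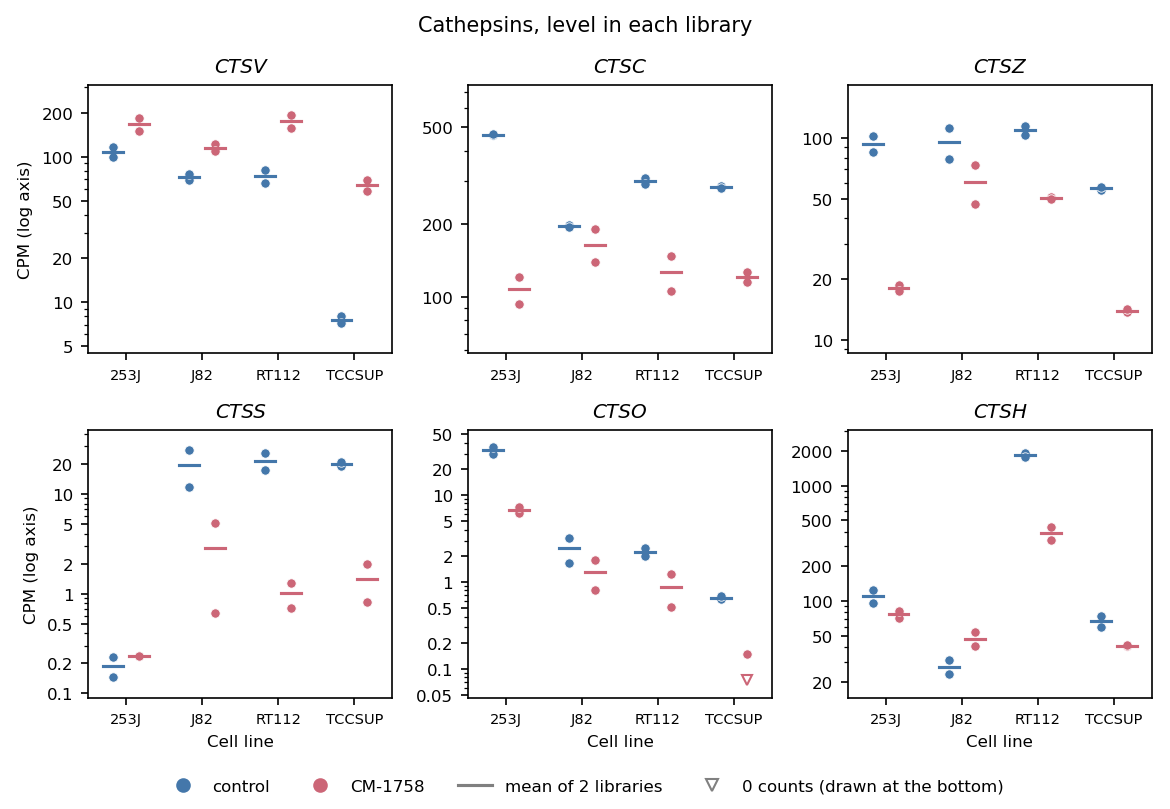
Level of 6 cathepsin genes in each library, in CPM on a log axis, by cell line, with control in blue, CM-1758 in red, bars at the mean of 2 libraries and an open triangle for 0 counts. CTSV is higher with CM-1758 in all 4 lines, CTSC and CTSZ are lower in 253J, RT112 and TCCSUP (J82 did not pass the limit), and CTSS falls in J82, RT112 and TCCSUP from between 11.7 and 27.6 CPM to between 0.643 and 5.12 CPM.

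CTSB, an endopeptidase that also trims from the carboxyl end, rose in 253J by 0.95 (adjusted p = 0.000452, edgeR) and was at -0.01 in J82, 0.03 in RT112 and -0.47 in TCCSUP (adjusted p = 0.0396). CTSL, a broad endopeptidase, fell in 253J, by 1.39 on the log2 scale (adjusted p = 0.000153, edgeR), and was at -0.73 in J82 (adjusted p = 0.0188). CTSD, the main aspartic protease, had log2 fold changes of -0.71, 0.02, -0.05 and 0.07 in 253J, J82, RT112 and TCCSUP, the first at adjusted p = 0.0431 (edgeR). CTSA, a serine carboxypeptidase that protects other lysosomal enzymes, ranged from -0.57 in TCCSUP to 0.53 in RT112 with no call. CTSF rose in RT112 by 1.21 (adjusted p = 0.000561, edgeR), lost without control replicate 2 at adjusted p = 0.0104, and had 0 counts in all 4 253J libraries, which allows up to 0.119 CPM. CTSK, the collagenase of osteoclasts, was at 1.10 to 2.83 CPM with no call.

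Per kilobase of exon, the order of the cathepsins differed between lines. In control CTSD led in J82 at 336 CPM per kilobase and in TCCSUP at 111, close there to CTSL, CTSA and CTSB at 109, 103 and 102. In 253J CTSL and CTSD led at 182 and 178 CPM per kilobase, and CTSB led after treatment at 173, with CTSL at 69.3. In RT112 CTSH led in control at 837 CPM per kilobase, and CTSD with treatment at 258, ahead of CTSH at 178. These are orders of means of 2 libraries, with no test between genes.

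Whether the response differed between cell lines was tested directly, as the interaction of treatment and cell line. It passed the limit for 15 of the 36 genes, 41.7%, against 36.6% of all genes, a share near that background. Both shares are from edgeR's fit of all 16 libraries, and no share of all genes is given for the other settings. DESeq2 gave 22 genes, and leaving out 1 library gave 12 to 19. The smallest adjusted p-values in edgeR's test were those of ATP6V1C2 (9.3e-07), ATP6V0A4 (3.21e-06), CTSV (3.83e-06) and CTSH (7.38e-06). CTSS, at 0.0745, and CTSO, at 0.145, did not pass. The control level differed between lines for 29 of the 36 genes, 80.6%, against 69.9% of all genes. The widest ranges among genes with counts in every line were in CTSS, 115-fold between RT112 and 253J, ATP6V0A4, 79.9-fold between J82 and TCCSUP, CTSH, 67.8-fold between RT112 and J82, and CTSO, 49.2-fold between 253J and TCCSUP.

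Genes of the same organelle from lists written from general knowledge are given for comparison. The shares of all tested genes that rose, 21.4%, 17.4%, 20.0% and 23.7% in 253J, J82, RT112 and TCCSUP, and that fell, 18.1%, 13.3%, 14.7% and 17.2%, are the background for each count that follows. Of 15 tested accessory and assembly factors of the V-ATPase, 3, 4, 5 and 3 rose (20.0%, 26.7%, 33.3% and 20.0%) and 1, 3, 3 and 3 fell in that order of lines. Within that list ATP6AP1, an accessory subunit, fell in 253J and TCCSUP, by 0.59 and 0.71 on the log2 scale, while ATP6AP2 rose in J82 and RT112, by 1.05 and 0.80. The highest mean change in the list was that of ATP6AP1L, which rose in all 4 lines by 1.27 to 2.38, and the lowest that of CCDC115, an assembly factor, which fell in J82, RT112 and TCCSUP by 0.90, 1.14 and 0.79.

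Of 44 lysosomal hydrolases, 14, 10, 10 and 9 rose (31.8%, 22.7%, 22.7% and 20.5%) and 18, 9, 12 and 16 fell (40.9%, 20.5%, 27.3% and 36.4%), with medians of 0.02, -0.14, -0.13 and -0.36. ARSB, the arylsulfatase of dermatan sulfate breakdown, fell in all 4 lines, by 1.93 to 3.66 on the log2 scale, and HYAL1, a hyaluronidase, rose in 253J, RT112 and TCCSUP, by 2.79, 3.52 and 2.32. LGMN, the asparaginyl protease that processes cathepsins, rose in 253J by 0.70 and fell in RT112 by 1.06 on the log2 scale. Of 30 lysosomal membrane proteins, 4, 4, 6 and 6 rose (13.3%, 13.3%, 20.0% and 20.0%) and 11, 5, 4 and 7 fell (36.7%, 16.7%, 13.3% and 23.3%). CD63, a tetraspanin of late endosomes, fell in all 4 lines, by 1.02 to 1.63 on the log2 scale, and MCOLN2, a cation channel, rose in RT112 by 4.11 and was at least 66.4-fold higher in TCCSUP, against a floor of 3 counts per library.

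Of 12 tested cathepsin inhibitors, 4, 2, 0 and 1 rose and 1, 1, 2 and 2 fell. CST3, the secreted inhibitor cystatin C, fell in 253J and TCCSUP, by 0.75 and 0.93 on the log2 scale. CSTA, an intracellular inhibitor, was at least 2.80-fold higher in 253J, 4.53-fold in J82 and 10.3-fold in TCCSUP over the same floor, and at 28.3 CPM in control and 28.5 CPM with treatment in RT112. Of 19 sorting genes, 7, 1, 5 and 2 rose and 2, 3, 5 and 2 fell, with CLN6 lower in all 4 lines, by 1.08 to 2.22 on the log2 scale, and AP1S2 higher in 253J, RT112 and TCCSUP, by 2.82, 1.29 and 1.30. Of 14 genes for Ragulator and the Rag GTPases, which link the pump to mTORC1, 7, 0, 3 and 2 rose and 1, 4, 1 and 0 fell, with RRAGD higher in RT112 and TCCSUP, by 1.97 and 4.33, and RPTOR lower in 253J and J82, by 0.74 and 0.62 on the log2 scale.

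**Figure D5:**
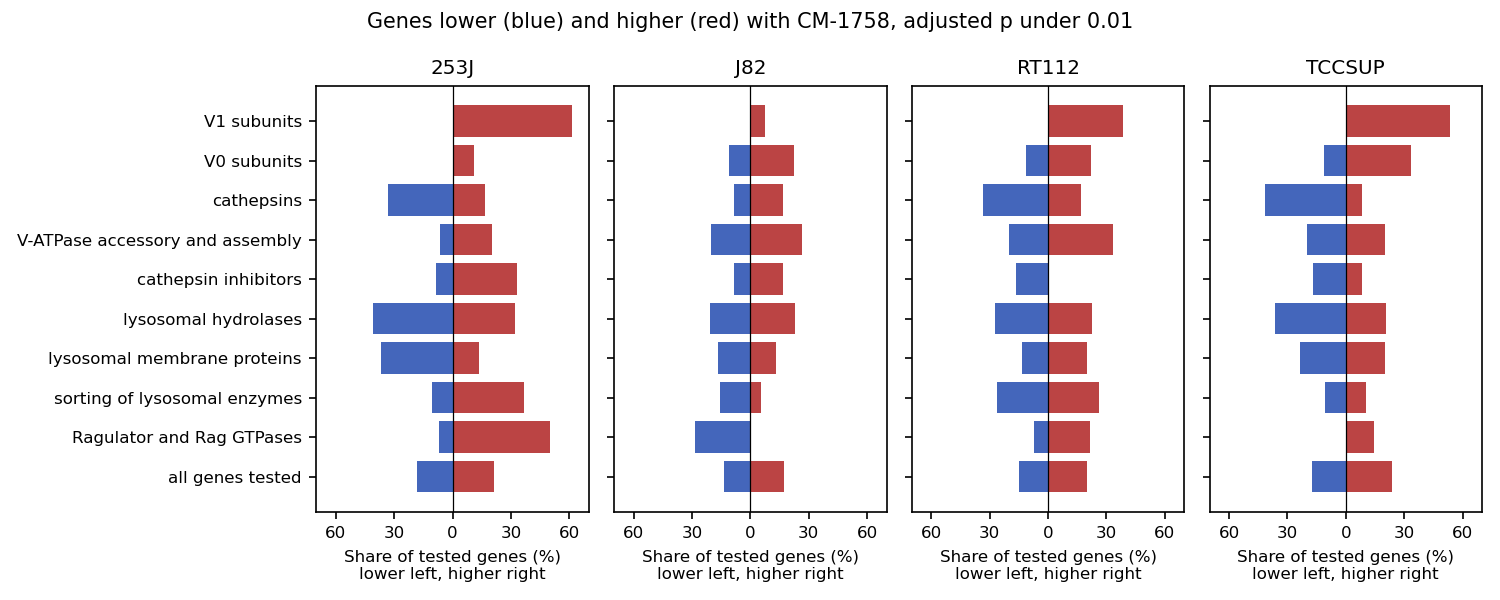
Share of the tested genes of each list (percent) that rose (red, to the right) or fell (blue, to the left) with CM-1758 at an adjusted p under 0.01, in 4 panels by cell line, with all tested genes in the last row. V1 subunits reach 61.5% higher and 0% lower in 253J, and cathepsins reach 41.7% lower in TCCSUP.

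The 4 MiT/TFE genes did not move as a group. TFEB rose in J82, from 0.279 to 2.89 CPM (log2 fold change 3.35 ± 0.31, adjusted p = 1.07e-06, edgeR), and was at -0.52 in 253J and RT112 and 0.20 in TCCSUP, uncalled. TFE3 rose in 253J and RT112, by 0.43 and 0.62, and fell in TCCSUP by 0.57 on the log2 scale. MITF rose in J82 by 1.26 and fell in TCCSUP by 0.95 on the log2 scale, and TFEC rose in 253J and TCCSUP, by 3.28 and 2.85. The treated J82 libraries, at 2.83 and 2.95 CPM of TFEB, stayed below the RT112 controls, at 16.2 and 18.5 CPM. Any link between the MiT/TFE genes and the V1 genes was not tested.

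The 16 libraries held 22506431 to 32537104 counts, of which the 39 genes took 0.252% to 0.455%. Replicates had Pearson correlations of 0.983 to 0.991 in log2 CPM. The J82 pairs differed most, at 67.1 and 46.1 times the sampling noise (chi-square per degree of freedom) against 10.9 to 20.6 elsewhere, and none of the 7 J82 calls held with J82 fitted alone, at adjusted p = 0.0136 to 0.0799. Of 15 epithelial and urothelial markers 7 to 14 were above the floor of 3 counts, depending on the group. In 253J, J82, RT112 and TCCSUP, 21.4%, 17.4%, 20.0% and 23.7% of all tested genes rose and 18.1%, 13.3%, 14.7% and 17.2% fell. Of the 15 markers, 4, 3, 2 and 2 rose in that order (26.7%, 20%, 13.3% and 13.3%). Those of the 15 that fell numbered 2, 1, 2 and 2 (13.3%, 6.67%, 13.3% and 13.3%). Their summed level was 3190 to 4340 CPM in control and 1880 to 2370 CPM with treatment in 253J, 1330 to 1450 and 516 to 598 CPM in TCCSUP, 8200 to 8600 and 6280 to 7070 CPM in RT112, and 5970 to 8100 and 6970 to 7890 CPM in J82. KRT20, a keratin of umbrella cells, rose in RT112 by 1.41. It was at least 84.5-fold higher in 253J, 33.3-fold in TCCSUP and 2.36-fold in J82. Other markers went down, with lowest log2 fold changes of -2.795, -1.817, -4.303 and -5.436 in 253J, J82, RT112 and TCCSUP. KRT5 was at 0 counts in 253J and J82. Of the markers of other cells, CSF1R was at least 17.9-fold higher in 253J and rose in RT112 and TCCSUP by 3.49 and 4.14, and of the 3 osteoclast markers CALCR rose in J82 by 3.43 and was at least 6.18-fold higher in 253J and 2.81-fold in TCCSUP, with OSCAR uncalled.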

How the data were processed

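The authors deposited 1 table of raw counts, whole numbers of reads per gene symbol and library, from stranded total RNA libraries depleted of ribosomal RNA. HISAT2, StringTie and GRCh37 are named in the submitters' processing notes, with no versions, and how strand was used in counting is not given in the sources used here. Every column was matched by its name to 1 sample.

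Low counts were removed by filterByExpr with the 8 groups given. Counts were then scaled by TMM and fitted with edgeR 4.0.16 in R 4.3.3 by the quasi-likelihood test, with 1 mean per group, all 16 libraries and 8 residual degrees of freedom. P-values were adjusted by Benjamini-Hochberg. An SE is the log2 fold change over the square root of F. The interaction and the control levels were F tests of 3 contrasts each. CPM uses TMM-scaled library sizes. Counts of 3 or fewer in every library of a group were taken as the floor. Values per kilobase used the union of exons of basic protein-coding transcripts in the GENCODE annotation of GRCh38, since the RefSeq table holds genomic spans. The fit was tested on simulated counts. With 2 libraries per group, p-values borrow the spread across genes.

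The members, gene lists and tests were chosen with earlier results of these data known. Given by library were genes past the study's threshold in at least 1 line or called in the same direction in all 4. Of the other lists the 8 genes TCIRG1, ATP6AP1, ATP6AP2, CST3, LGMN, TFEB, TFE3 and MITF and the genes with the highest and the lowest mean change were named, and the blood-cell markers other than PTPRC and CSF1R were named after their values were seen. The alternatives were RLE size factors, library size alone, 7 small noncoding RNA genes left out, DESeq2 1.42.0, each line alone, no filter, at least 10 counts in every library, a replicate block, an adjusted p under 0.05, shares without a length correction, and each library left out.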

Additional observations from a re-analysis of the deposited data

Results flagged for a closer look

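The effect of CM-1758 differed between the 4 cell lines for 15 of the 36 tested genes, by the F test of the interaction in edgeR's quasi-likelihood model with Benjamini-Hochberg adjustment. That is 41.7%, near the 36.6% of all tested genes, so the count says nothing particular to these genes. In the V1 sector the adjusted p was 0.00151 for ATP6V1A, 0.000144 for ATP6V1B2, 0.00486 for ATP6V1C1, 9.3e-07 for ATP6V1C2, 4.5e-05 for ATP6V1D and 0.00362 for ATP6V1G1. For 5 of these 6 the largest log2 fold change was in 253J, between 1.34 for ATP6V1G1 and 2.35 for ATP6V1D, and for ATP6V1C2 it was in RT112, at 3.50.

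In the V0 sector the adjusted p was 3.21e-06 for ATP6V0A4, 0.000188 for ATP6V0D1 and 0.00306 for ATP6V0E1. ATP6V0A4 rose in TCCSUP, and ATP6V0E1 fell there. Among the cathepsins it was 0.00204 for CTSB, 0.000278 for CTSC, 7.38e-06 for CTSH, 0.0036 for CTSL, 3.83e-06 for CTSV and 0.000363 for CTSZ. CTSB and CTSL moved in opposite directions in 253J, by 0.95 and -1.39. The dose and, for TCCSUP, the medium differed with the cell line and cannot be told apart from it.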

How the results depend on the processing

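No change of a called gene turned its direction under any alternative run. Of the 54 calls of a gene in a cell line, 54 held with DESeq2 and with the small noncoding RNA genes left out, 53 with RLE size factors and with no filter, 51 with library size alone, and 46 with each line fitted alone, where the numbers in J82 went from 5 higher and 2 lower to 0 and 0. The genes lower in J82 numbered 1 with library size alone. At least 10 counts in every library left 1 gene lower in J82 and 3 in TCCSUP. Of the called genes, CTSS, CTSO, CTSF, ATP6V0A4 and ATP6V1FNB were then not tested, and of 46 calls 45 held. At an adjusted p under 0.05, 7 genes fell in 253J, 4 in J82 and 8 in RT112.

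When 1 library was left out, the lone library of its group was assumed to vary like the others. The genes past the study's threshold then ran from 3 to 6 in 253J and from 0 to 1 in J82, those higher from 2 to 5 in J82 and from 7 to 13 in TCCSUP, and those lower from 0 to 4 in J82. The low ends came without 253J CM-1758 replicate 1, J82 control replicate 1 (also CM-1758 replicate 3 for the threshold), J82 control replicate 3, and TCCSUP control replicate 1 or CM-1758 replicate 2. The 13 in TCCSUP came without either J82 control.

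Same-numbered control and treated libraries share only a number in the labels. Their deviations from the group means had correlations of 0.218 (J82), 0.0529 (253J, where 1 number is shared), 0.0427 (RT112) and 0.0173 (TCCSUP). With replicate number as a block, 4 genes fell in J82 in place of 2, and ATP6V1F and ATP6V1FNB in 253J were no longer called. The block changed the direction of no call. The causes of these differences were not tested. Genes under about 1 CPM, such as CTSO in TCCSUP, rest on few counts.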
